A study of Mus musculus with 4 samples.

Results

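Transcripts of 9 genes made by maturing red blood cells and by neutrophil granulocytes were followed in RNA sequencing libraries of mouse cochleae at postnatal day 10. The genes were chosen by name, with earlier results of these data known, and their rows were found by symbol. Slc4a1, Alas2 and Epb42 stood for the red cell lineage and S100a8, S100a9, Ngp, Camp, Ltf and Mpo for granulocytes. These were 9 of the 17816 genes with a value. The 4 libraries were 2 from cochleae of C57BL/6 mice labelled Zbtb20 F/F with a cre driver (ZB20KO) and 2 from C57BL/6 mice labelled Zbtb20 +/+ with a cre driver (WT), so both genotypes carried cre. The labels spell the driver FoxG2-cre in replicate 2 and FoxG3-cre in replicate 3 of both genotypes, and they do not name the deleted part of Zbtb20 or the cells in which cre was active. The product of Zbtb20 is a transcription factor with zinc fingers, and the series sets cochleae of both genotypes side by side.

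Red blood cells are built from erythroblasts, which make hemoglobin and a membrane held up by a protein skeleton, and the last stages still carry some of that messenger RNA into the blood. Neutrophils are built in the marrow and fill their granules in order: myeloperoxidase goes into the primary granules, lactoferrin and cathelicidin into the secondary granules, and the S100A8 and S100A9 proteins fill the cytosol of the ripe cell. The cochlea lies inside the temporal bone and is crossed by blood vessels.

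Most of the 9 genes were lower in ZB20KO cochleae, and the changes that passed the test were in the anion exchanger gene Slc4a1 and in S100a9. Slc4a1 stood at 15.9% and S100a9 at 27.5% of the WT mean. In 7 of the 9 genes both ZB20KO libraries lay below both WT libraries, as they did in 16.1% of all 17816 genes. Camp and Ngp were the 2 genes whose groups overlapped. All 9 were scarce: the highest value of any of them in any library was the 8.26 FPKM of Alas2 in WT replicate 2. FPKM is a level per length: sequenced fragments for each kilobase of a transcript, relative to all fragments in that library.

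**Figure D1:**
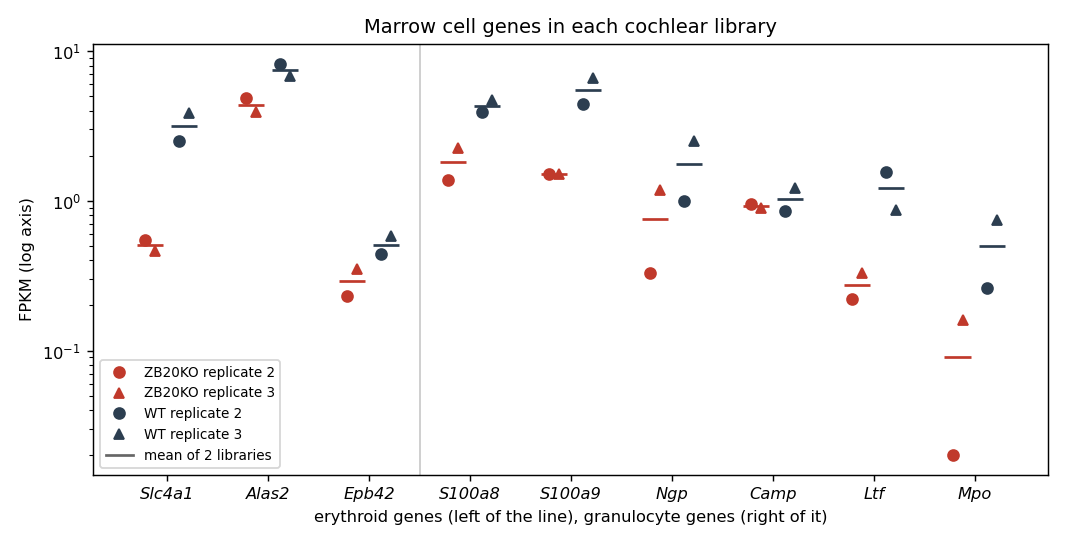
FPKM (log axis) of the 9 genes in each library, with ZB20KO in red to the left and WT in dark blue to the right for each gene, circles for replicate 2, triangles for replicate 3 and a bar at the mean of the 2 libraries. The groups stand apart in 7 genes and overlap in Ngp and Camp.

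The 250 bases before the RefSeq start are shown for Alas2, which belongs to the red cell lineage, and for S100a8, S100a9 and Ngp, which belong to neutrophils, because these 4 genes were measured above 1 FPKM in at least 1 library of each genotype and had an entry among the promoters. They come from RefSeq on GRCm38, the assembly of mm10, and 8 of the 9 genes had an entry. Capitals mark matches on either strand to GATAA, the core letters bound by GATA factors, to CCNCNCCC, a form of the box bound by Krüppel-like factors, or to TTGCNNAA, a form of the letters bound by C/EBP factors, and overlapping matches run together. The windows lie at chrX:150547167-150547416 (plus strand) for Alas2, chr3:90668821-90669070 (plus strand) for S100a8, chr3:90695722-90695971 (minus strand) for S100a9 and chr9:110419558-110419807 (plus strand) for Ngp.
Alas2: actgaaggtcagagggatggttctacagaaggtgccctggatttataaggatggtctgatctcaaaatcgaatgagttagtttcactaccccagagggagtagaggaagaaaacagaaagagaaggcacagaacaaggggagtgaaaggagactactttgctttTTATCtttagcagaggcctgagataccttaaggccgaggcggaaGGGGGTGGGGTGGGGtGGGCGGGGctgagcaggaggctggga
S100a8: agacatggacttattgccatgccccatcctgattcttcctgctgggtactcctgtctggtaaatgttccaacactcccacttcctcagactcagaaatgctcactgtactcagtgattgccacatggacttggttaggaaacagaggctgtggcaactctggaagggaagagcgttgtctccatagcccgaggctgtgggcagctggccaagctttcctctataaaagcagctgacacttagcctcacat
S100a9: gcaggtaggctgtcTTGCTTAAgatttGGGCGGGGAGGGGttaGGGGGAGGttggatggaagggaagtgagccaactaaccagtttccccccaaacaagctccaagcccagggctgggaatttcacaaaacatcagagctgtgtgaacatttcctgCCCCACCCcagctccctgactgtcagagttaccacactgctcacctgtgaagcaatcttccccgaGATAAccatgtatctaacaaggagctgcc
Ngp: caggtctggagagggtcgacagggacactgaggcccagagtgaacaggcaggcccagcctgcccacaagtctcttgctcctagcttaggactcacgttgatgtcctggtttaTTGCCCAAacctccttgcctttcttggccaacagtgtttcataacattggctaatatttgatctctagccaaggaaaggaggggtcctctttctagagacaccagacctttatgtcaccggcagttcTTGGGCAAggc

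Alas2 held 1 match to GATAA, 82 to 86 bases before its start, and 4 to CCNCNCCC. S100a9 held 1, 4 and 1 matches to GATAA, CCNCNCCC and TTGCNNAA, and Ngp held 2 to TTGCNNAA and none to the other 2 motifs. None of the 3 motifs was found in the S100a8 window. Among the promoters not printed, Epb42 held 1 match to GATAA, Camp 1 and Mpo 2 to CCNCNCCC, and Ltf 1 to GATAA, 2 to CCNCNCCC and 1 to TTGCNNAA. GATAA occurred in 4 of the 8 windows and in 22.6% of 32851 promoters of the same length, CCNCNCCC in 5 of 8 and in 45.9%, and TTGCNNAA in 3 of 8 and in 9.56%. A match describes letters only, and binding was not measured.

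Zbtb20 itself was measured at 7.35 and 7.41 FPKM in ZB20KO replicates 2 and 3 and at 10.94 and 10.67 FPKM in WT replicates 2 and 3 (log2 fold change -0.49 ± 0.08, SE, adjusted p = 0.0394, limma). A gene-level value also counts exons outside any deleted part, so it checks the labels in part only. The libraries held an estimated 18400000 to 19800000 fragments, and 12933 to 13008 genes were above 1 FPKM in each. WT replicate 2 stood apart by skeletal muscle transcripts. The 14 genes of the muscle list summed to 18.8 and 34.76 FPKM in ZB20KO replicates 2 and 3. In WT replicates 2 and 3 they summed to 640.3 and 77.96 FPKM. Outside WT replicate 2 most of each sum was Pvalb: 12.9 and 31.82 FPKM in ZB20KO and 75.73 in WT replicate 3. In WT replicate 2 Pvalb was at 46.42 FPKM. Acta1 was at 0.38 and 0 FPKM in ZB20KO and at 130.77 and 0.11 FPKM in WT. The cochlear genes Coch, Otor, Otos and Tectb were at 158.51 FPKM or more in every library, so the labelled tissue was present in all 4. Their levels were not equal in the 2 genotypes. Coch averaged 662 FPKM in ZB20KO and 1573 FPKM in WT, and Otor averaged 4658 and 2014 FPKM. Of the 12 genes of the cochlear list, all tested, 6 rose and 1 fell in ZB20KO (limma, adjusted p under 0.05). The shares of all tested genes were 2.38% and 2.04%. Nothing in the labels says that libraries of a genotype came from separate animals, and p-values then measure only the spread between these libraries.

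Tests by limma on log2(FPKM + 1) covered 13966 genes and called 618 (4.43%) at the adjusted p threshold of 0.05, 333 of them higher (2.38%) and 285 lower (2.04%) in ZB20KO. With median-of-ratios scaling the split was 243 higher and 350 lower. Of the 9 marrow cell genes 7 passed the filter of a mean of 0.5 FPKM over the 4 libraries and were tested. Of these, 2 fell, Slc4a1 and S100a9, and 0 rose. Both ZB20KO libraries lay above both WT libraries in 0 of the 7, against 37.9% of all tested genes, and below them in 5 of the 7, against 17.1%. Epb42 and Mpo were too low to be tested. The median log2 fold change of all tested genes was 0.06. At an unadjusted p under 0.05, which is given below for lists without a call, 14.3% of all tested genes were higher and 7.74% lower in ZB20KO.

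The red cell genes were lower throughout. Slc4a1 encodes band 3, the chloride and bicarbonate exchanger of the red cell membrane (chromosome 11, 102348824 to 102366203, minus strand, GRCm38). It was at 0.55 and 0.46 FPKM in ZB20KO replicates 2 and 3 and at 2.5 and 3.84 FPKM in WT replicates 2 and 3. Both ZB20KO libraries were low and close together, and the WT libraries, though 1.54-fold apart, were each several times higher. Slc4a1 averaged 0.505 ± 0.0636 FPKM in ZB20KO and 3.17 ± 0.948 FPKM in WT (SD, n = 2 libraries each), and it fell by 1.45 ± 0.18 (SE) as log2 of FPKM + 1 (limma, adjusted p = 0.0218). These values correspond to about 46 and 41 fragments in the ZB20KO libraries and 208 and 332 fragments in the WT libraries. In bulk RNA, fewer cells of a type and less RNA per cell cannot be told apart.

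Alas2 encodes the erythroid form of 5-aminolevulinate synthase, which starts heme synthesis (chromosome X, 150547375 to 150570638, plus strand). It was at 4.84 and 3.93 FPKM in ZB20KO replicates 2 and 3 and at 8.26 and 6.8 FPKM in WT replicates 2 and 3. The groups did not overlap, and the gap between the nearest libraries was somewhat wider than the spread within WT. Its log2 fold change was -0.66 ± 0.14 and did not pass (adjusted p = 0.0681, limma). Of its exon bases 12.9% are shared with genes on the other strand, chiefly Apex2, a DNA repair gene. Apex2 was at 1.85 and 2.35 FPKM in ZB20KO and 2.02 and 2.23 FPKM in WT (-0.02 ± 0.13). The sources used here do not say whether strand was used in counting, so reads from the shared bases cannot be assigned.

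Epb42 encodes protein 4.2, which ties band 3 to the membrane skeleton (chromosome 2, 121017891 to 121037072, minus strand). It was at 0.23 and 0.35 FPKM in ZB20KO replicates 2 and 3 and at 0.44 and 0.58 FPKM in WT replicates 2 and 3. The groups stood apart by less than the spread within either of them. The values correspond to about 17 and 28 fragments in ZB20KO and 33 and 45 fragments in WT. Tested without the filter on low values, Epb42 differed by -0.23 (log2, limma, adjusted p = 0.25). The 3 genes together summed to 5.62 and 4.74 FPKM in ZB20KO and to 11.2 and 11.22 FPKM in WT, and their median log2 fold change, Epb42 included, was -0.66.

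**Figure D2:**
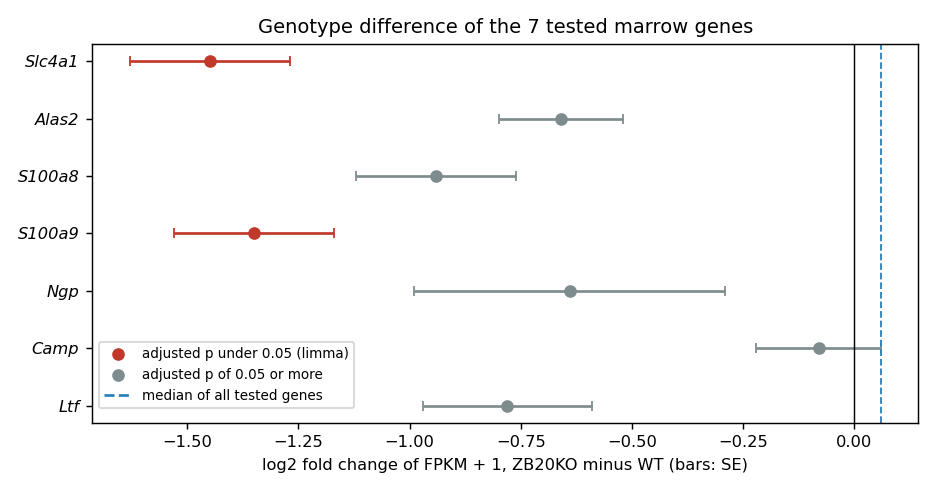
Log2 fold change of FPKM + 1, ZB20KO minus WT, with SE bars, for the 7 tested genes, red where the adjusted p was under 0.05 (limma) and grey where not. Slc4a1 at -1.45 and S100a9 at -1.35 lie farthest from the dashed median of all tested genes (0.06), and Camp at -0.08 lies nearest.

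No globin gene, whose transcripts fill late erythroblasts and reticulocytes, passed the test. Of 9 listed globin genes 7 had a value and 6 were tested, of which 0 rose and 0 fell (limma, lowest adjusted p 0.228, and none at an unadjusted p under 0.05). The median log2 fold change of the 6 was -0.84. Hbb-b1 and Hbb-b2, at -2.4 and -1.37, each had 1 ZB20KO library listed at 0 and a higher mean FPKM in ZB20KO (108.2 and 20.04) than in WT (78.97 and 15.87). The median of Hba-a1, Hba-a2, Hbb-bs and Hbb-bt, which lack such a 0, was -0.68. The adult alpha globin genes Hba-a1 and Hba-a2 summed to 612.1 and 383.1 FPKM in ZB20KO replicates 2 and 3 and to 832.3 and 565.9 FPKM in WT replicates 2 and 3. ZB20KO replicate 2 lay above WT replicate 3, so the groups overlapped, and within each replicate number the ZB20KO library was the lower. Alpha globin FPKM stood at 126 and 97.5 times that of Alas2 in ZB20KO and at 101 and 83.2 times in WT.

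The adult beta globin copies differed between libraries. Hbb-bs and Hbb-bt are the copies of the mouse s haplotype. They summed to 152.8 and 299 FPKM in ZB20KO replicates 2 and 3. In WT replicates 2 and 3 the sums were 417.8 and 336.1 FPKM. Hbb-b1 and Hbb-b2 are the copies of the d haplotype. They were both listed at 0 in ZB20KO replicate 3, and summed to 117 and 72.68 FPKM in the WT libraries. In ZB20KO replicate 2 they summed to 256.5 FPKM. Their share of adult beta globin FPKM was thus 62.7% in ZB20KO replicate 2, and 21.9% and 17.8% in WT replicates 2 and 3. These copies are near-identical, and RSEM divides fragments among such copies by estimation, so the split between them is uncertain. Whether the libraries differed in beta globin haplotype was not tested. The 4 beta genes together were at 409.3 and 299 FPKM in ZB20KO and 534.8 and 408.8 FPKM in WT.

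**Figure D3:**
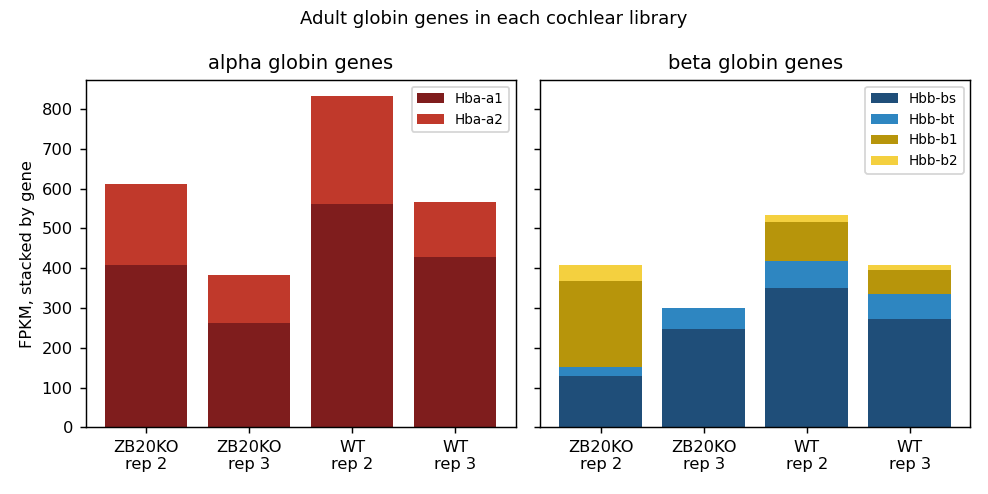
Stacked FPKM of the adult alpha globin genes (left panel) and beta globin genes (right panel) in the 2 ZB20KO libraries and the 2 WT libraries. ZB20KO replicate 3 holds neither Hbb-b1 nor Hbb-b2, and ZB20KO replicate 2 holds 62.7% of its beta globin FPKM in them.

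Among 16 other genes of the red cell membrane and its skeleton 13 were tested, of which 2 fell and 0 rose, with a median log2 fold change of -0.2. Both ZB20KO libraries lay below both WT libraries in 9 of the 16 and above them in 2. The shares of all genes with a value were 16.1% and 33.3%. Gypc, the glycophorin C gene, which other cells also use, was at 13.09 and 14.36 FPKM in ZB20KO and at 19.06 and 19.26 FPKM in WT, and fell by 0.45 ± 0.08 (limma, adjusted p = 0.0485). The Gypc call was lost without any 1 of the 4 libraries. Ank1, the gene of the ankyrin that anchors band 3, was at 1.08 and 2.69 FPKM in ZB20KO and at 4.57 and 8.05 FPKM in WT (-1.36 ± 0.35, adjusted p = 0.107). Tmod1 and Epb41, skeleton genes that many cells express, had log2 fold changes of 0 ± 0.06 and 0.08 ± 0.08.

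Genes further up the red cell pathway showed no call. Of 12 genes of heme synthesis and iron uptake, all tested, 0 rose and 0 fell (limma; at an unadjusted p under 0.05, 2 were higher and 1 lower), with a median of 0.05. The transferrin receptor gene Tfrc was at 9.25 and 12.44 FPKM in ZB20KO and 14.96 and 18.53 FPKM in WT (-0.59 ± 0.17, adjusted p = 0.129), and Ppox and Fech, which encode the last enzymes of heme synthesis, were at 0.24 ± 0.07 and 0.18 ± 0.07. Of 17 erythroid regulators and other erythroid genes 10 were tested, with 0 calls (2 lower at an unadjusted p under 0.05) and a median of -0.05. In 8 of the 16 with a value both ZB20KO libraries lay below both WT libraries, and in 0 above them, against 16.1% and 33.3% of all genes with a value. Of these 8, Hemgn, Trim10 and Cldn13 stood at 25%, 30.6% and 9.8% of the WT mean, with every library under 1 FPKM. The 3 genes of the list with the highest mean, Zfpm1, Bpgm and Nfe2, stood at 102%, 101% and 100% of the WT mean. Klf1, a master transcription factor gene of erythroblasts, was at 0.4 and 0.5 FPKM in ZB20KO and at 0.65 and 1.18 FPKM in WT (-0.39 ± 0.18, adjusted p = 0.277). Gata1, another such gene, stayed under 0.5 FPKM in every library, at 0.06 and 0.05 FPKM in ZB20KO and 0.23 and 0.17 FPKM in WT.

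Among the granulocyte genes the cytosolic pair came first. S100a8 and S100a9 encode the paired subunits of calprotectin, a calcium-binding protein that makes up a large part of the neutrophil cytosol. They lie 22.6 kb apart on chromosome 3 (90668978 to 90670035, plus strand, and 90692632 to 90695721, minus strand). S100a9 was at 1.52 and 1.51 FPKM in ZB20KO replicates 2 and 3 and at 4.43 and 6.57 FPKM in WT replicates 2 and 3. The ZB20KO libraries were nearly equal, and both WT libraries were well above them. S100a9 averaged 1.515 ± 0.00707 FPKM in ZB20KO and 5.5 ± 1.51 FPKM in WT (SD, n = 2 libraries each), and it fell by 1.35 ± 0.18 as log2 of FPKM + 1 (limma, adjusted p = 0.0235). These levels correspond to about 14 and 15 fragments in ZB20KO and 40 and 62 fragments in WT.

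S100a8 was at 1.37 and 2.25 FPKM in ZB20KO replicates 2 and 3 and at 3.95 and 4.7 FPKM in WT replicates 2 and 3. The groups stood apart, and the ZB20KO libraries were 1.64-fold apart. Its log2 fold change of -0.94 ± 0.18 did not pass (adjusted p = 0.0593, limma). Over its alternatives the adjusted p of S100a8 ran from 0.00589 to 0.316, and the lowest came from the fit with replicate number as a block.

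The 3 genes of the secondary granules all lie on chromosome 9, and their groups stood apart in Ltf but not in Ngp or Camp. Ltf encodes lactoferrin, an iron-binding protein (111019271 to 111042767, plus strand). It was at 0.22 and 0.33 FPKM in ZB20KO replicates 2 and 3 and at 1.56 and 0.87 FPKM in WT replicates 2 and 3. The groups were apart, with WT replicate 2 the highest, and the log2 fold change of -0.78 ± 0.19 did not pass (adjusted p = 0.0984, limma). It passed without WT replicate 3 (-1.01, adjusted p = 0.0369), and without WT replicate 2 its mean was below the filter.

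Ngp, the neutrophilic granule protein gene of the mouse, encodes a protein related to the cathelicidins (110419747 to 110423012, plus strand). It was at 0.33 and 1.18 FPKM in ZB20KO replicates 2 and 3 and at 1 and 2.52 FPKM in WT replicates 2 and 3. Replicate 3 was the higher library in both genotypes, by 3.58-fold in ZB20KO and 2.52-fold in WT, and the groups overlapped. Its log2 fold change was -0.64 ± 0.35 (adjusted p = 0.347, limma).

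Camp encodes the mouse cathelicidin, the precursor of an antimicrobial peptide (109847379 to 109849617, minus strand). It was at 0.96 and 0.89 FPKM in ZB20KO replicates 2 and 3 and at 0.86 and 1.21 FPKM in WT replicates 2 and 3. The libraries of both genotypes were interleaved, and the difference was -0.08 ± 0.14 (adjusted p = 0.785). These values correspond to about 13 and 13 fragments in ZB20KO and 12 and 17 fragments in WT.

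Mpo encodes myeloperoxidase, the enzyme of the primary granules that neutrophil precursors make first (chromosome 11, 87793581 to 87804413, plus strand). It was at 0.02 and 0.16 FPKM in ZB20KO replicates 2 and 3 and at 0.26 and 0.74 FPKM in WT replicates 2 and 3. The ZB20KO libraries were the lower, and within WT replicate 3 was 2.85-fold above replicate 2. The values correspond to about 1 and 9 fragments in ZB20KO and 13 and 39 fragments in WT, and 15% of the exon bases are shared with Gm11505 on the other strand. Mpo was below the filter, and tested without it differed by -0.44 (log2, limma, adjusted p = 0.282). The 6 granulocyte genes together summed to 4.42 and 6.32 FPKM in ZB20KO and to 12.06 and 16.61 FPKM in WT, and replicate 3 was the higher in both genotypes. Their median log2 fold change, Mpo included, was -0.71. The red cell sum over the granulocyte sum was 1.27 and 0.75 in ZB20KO and 0.929 and 0.675 in WT, so this ratio overlapped between genotypes.

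Other neutrophil genes were scarce. Of 7 other genes of the primary granules or of neutrophil precursors 5 were below 1 FPKM in every library, 2 were tested and 0 passed (limma, none at an unadjusted p under 0.05). Elane, the neutrophil elastase gene, was at 0 and 0.06 FPKM in ZB20KO and 0.06 and 0.12 FPKM in WT, and Prtn3, the proteinase 3 gene, at 0.51 and 0.26 FPKM in ZB20KO and 0.4 and 0.33 FPKM in WT. Of 17 listed genes of the secondary and tertiary granules 16 had a value, 11 of them below 1 FPKM in every library. Of the 6 tested, 1 fell and 0 rose, with a median of -0.3. The gene that fell was Anxa1, which encodes annexin A1 and is also expressed by many epithelial and mesenchymal cells, at 28.12 and 29.58 FPKM in ZB20KO and 74.77 and 69.9 FPKM in WT (-1.3 ± 0.07, adjusted p = 0.00448). Lyz2, the lysozyme gene of granulocytes and macrophages, was at 28.62 and 34.34 FPKM in ZB20KO and 25.66 and 30.99 FPKM in WT.

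Of 16 neutrophil surface and signalling genes 7 were tested and 0 passed (limma, 1 lower at an unadjusted p under 0.05), with a median of 0.04. Cxcr2, the receptor gene for neutrophil-attracting chemokines, was at 1.88 and 2.34 FPKM in ZB20KO and 1.62 and 1.73 FPKM in WT. Csf3r, the receptor gene for the granulocyte growth factor, was at 1.05 and 1.04 FPKM in ZB20KO and 0.85 and 1.12 FPKM in WT. Ly6g, a defining surface gene of mouse neutrophils, was at 0.12 and 0.06 FPKM in ZB20KO and 0.31 and 0.47 FPKM in WT. Of 6 granulocyte transcription factor genes 5 were tested with 0 calls (at an unadjusted p under 0.05, 1 was higher and 2 were lower) and a median of -0.35. Cebpe, which drives the secondary granule program, was listed at 0 in both ZB20KO libraries and was at 0.04 and 0.17 FPKM in WT.

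Among 13 ligand and receptor genes of marrow cells 12 had a value and 10 were tested, of which 1 fell and 0 rose, with a median of 0.06. The gene that fell was Kit, the stem cell factor receptor gene, which melanocytes also use, at 7.95 and 9.31 FPKM in ZB20KO and 14.07 and 17.29 FPKM in WT (-0.79 ± 0.13, adjusted p = 0.0412, limma). That call was lost without WT replicate 3 (-0.65), without either ZB20KO library, without the filter on low values and without the intensity trend. Cxcl12, whose product holds blood cell precursors in the marrow, was at 33.34 and 35.69 FPKM in ZB20KO and 31.87 and 33.37 FPKM in WT. Ager, one of the receptor genes for calprotectin, was at -0.43 ± 0.15 as log2 fold change (adjusted p = 0.196), and Tlr4, the other, was at -0.02 ± 0.13.

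Markers of the other cells of marrow, blood and bone moved in different ways. Of 13 B cell precursor genes 12 had a value, 5 were tested and 0 passed (limma, none at an unadjusted p under 0.05; median -0.17). Of 11 megakaryocyte and platelet genes 10 had a value and 3 were tested, and 1 rose: Pf4, which macrophages express as well, at 23.67 and 19.53 FPKM in ZB20KO and 12.61 and 9.2 FPKM in WT (0.93 ± 0.17, adjusted p = 0.0493). Its call was lost with median-of-ratios scaling (0.86, adjusted p = 0.0693, limma), without the filter on low values and without the intensity trend. It was also lost without either ZB20KO library and without WT replicate 3 (0.73). Of 15 macrophage and monocyte genes 12 were tested, 2 rose and 1 fell, with a median of 0.28. In 11 of the 15 both ZB20KO libraries lay above both WT libraries, and in 1 below them. The shares of all genes with a value were 33.3% and 16.1%. Slc40a1, the iron exporter gene ferroportin, rose to 12.64 and 12.99 FPKM in ZB20KO, against 5.95 and 6.37 FPKM in WT (0.95 ± 0.08, adjusted p = 0.0098), and the mannose receptor gene Mrc1 rose by 0.53 ± 0.08 (adjusted p = 0.0335). Vcam1, the adhesion molecule gene, fell by 0.4 ± 0.07 (adjusted p = 0.046). The Mrc1 and Vcam1 calls were lost without any 1 of the 4 libraries.

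Of 10 osteoclast genes 5 were tested and 0 passed (limma, none at an unadjusted p under 0.05; median -0.42). Acp5, the osteoclast phosphatase gene, was at 11.91 and 10.88 FPKM in ZB20KO and at 44.15 and 14.52 FPKM in WT, with WT replicate 2 far above the rest. Of 12 genes of osteoblasts and bone matrix, all tested, 1 fell and 1 rose, with a median of -0.59. Mepe, a matrix protein gene of osteocytes, was at 3.22 and 2.43 FPKM in ZB20KO and 8.24 and 8.31 FPKM in WT (-1.29 ± 0.13, adjusted p = 0.0121, limma). Spp1, the osteopontin gene, rose by 0.67 ± 0.11 (adjusted p = 0.0365, limma). The Spp1 call was lost with median-of-ratios scaling (0.59, adjusted p = 0.0574), without the filter on low values and without the intensity trend. It was also lost without either ZB20KO library and without WT replicate 3 (0.53). The bone list summed to 2253 and 2606 FPKM in ZB20KO and to 3497 and 3268 FPKM in WT, and in 10 of its 12 genes both ZB20KO libraries lay below both WT libraries, against 17.1% of tested genes. The part of bone or adhering tissue in the marrow cell genes was not tested. Of 12 cell cycle genes 10 were tested and 0 passed (1 lower at an unadjusted p under 0.05; median 0.14).

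**Figure D4:**
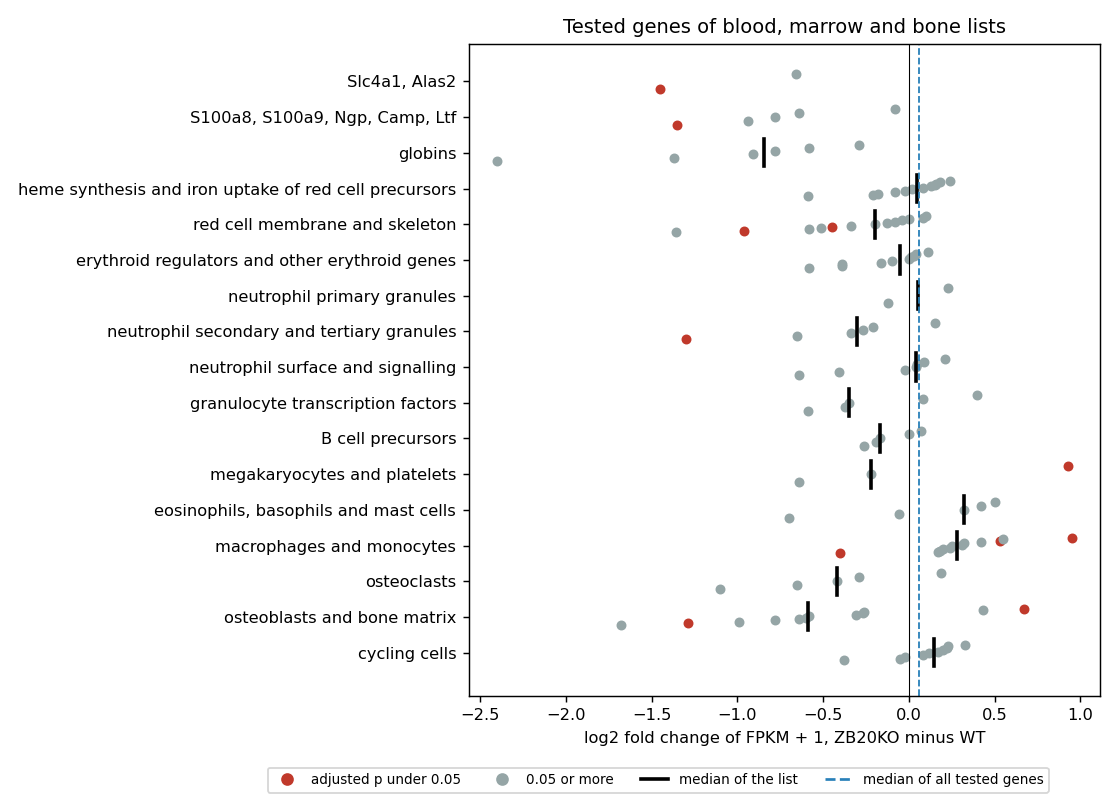
Log2 fold change of FPKM + 1, ZB20KO minus WT, of each tested gene (1 point each, red where the adjusted p was under 0.05 by limma) in the 7 tested marrow cell genes and in lists of related cells, with black bars at list medians and a dashed line at the median of all tested genes (0.06). The skeletal muscle, cochlear and ligand and receptor lists are not drawn, and the medians of the lists drawn run from -0.84 for the globins to 0.32 for eosinophils, basophils and mast cells.

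Genes whose pattern over the 4 libraries was most like the marrow cell genes were sought among 11843 genes averaging 2 FPKM or more, by Euclidean distance of mean-centred log2(FPKM + 1) values. Nearest to the mean of the 3 red cell genes were Ctxn3 (distance 0.056), Ppm1h (0.068), Hs3st1 (0.075), Adgra3 (0.083) and C2 (0.091). Ctxn3 was at 12.7 and 11.59 FPKM in ZB20KO and at 20.4 and 23.12 FPKM in WT. Nearest to the mean of S100a8, S100a9, Ngp, Camp and Ltf were Pex5l (0.034), Kit (0.047), Mt3 (0.056), Ahcyl2 (0.059) and Fn3k (0.081). Pex5l was at 1.98 and 2.61 FPKM in ZB20KO and at 4.17 and 5.16 FPKM in WT. Of these 10 genes only Kit was in one of the lists. The likeness rests on 4 libraries and is a description.

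The calls for Slc4a1 and S100a9 held without either WT library and not without either ZB20KO library. Without WT replicate 2, the library with muscle transcripts, Slc4a1 was at -1.69 (adjusted p = 0.00999, limma) and S100a9 at -1.59 (adjusted p = 0.00858). Without ZB20KO replicate 2 the adjusted p was 0.224 for Slc4a1 and 0.254 for S100a9, and without ZB20KO replicate 3 it was 0.215 and 0.216, while their log2 fold changes stayed between -1.5 and -1.35. In each of those 2 fits 1 gene of all tested passed, and it was none of the 9: Ttr, the transthyretin gene.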

How the data were processed

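RNA of cochleae was measured in 2 ZB20KO and 2 WT libraries, with groups and replicate numbers from the sample titles. The authors deposited 1 FPKM table per library, per the file headers, and each library's own column was used (4 repeated per-sample columns were not). HISAT2 2.0.4, Bowtie2 2.2.5, RSEM 1.2.12 and mm10 are named, without roles, per the submitters' processing notes. Each table had 20777 rows, of which 17816 held a value. Symbols came from RefSeq by gene ID (20705 matched), and positions from GENCODE vM21.

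Genes averaging 0.5 FPKM or more in the libraries of a fit were tested with limma 3.58.1 in R 4.3.3 on log2(FPKM + 1), with genotype as the term, an intensity trend and two-sided Benjamini-Hochberg adjustment over all tested genes (threshold 0.05). The pseudocount of 1 understates changes of low genes. With 2 libraries per genotype an exact permutation test of 1 gene cannot go below 0.333. The fit was tested on simulated data.

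Fragments were estimated from the steps between low FPKM values of single-transcript genes. Fragment totals and a length correction were searched for a high share of whole values. At the totals taken, 72.8% to 74.6% of 478 to 512 values per library came out whole within 0.15 fragments. Chance gives 30% at a total set in advance, and the best of a search can exceed that by chance. The share found is too low to treat fragments as counts, so fragments per gene are approximate. Replicate libraries had unequal values in 13886 (ZB20KO) and 13896 (WT) tested genes and were counted separately.

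The 9 genes and the 18 lists of related cells were chosen with earlier results of these data known. Named list genes come from the 3 with the highest mean and the called ones or, without any, the 3 with the smallest p. Not every gene that this rule picks is named. Hbb-b1, Hbb-b2, Hemgn, Trim10, Cldn13, Ank1, Gata1, Elane, Csf3r, Ly6g, Cebpe, Tlr4 and Apex2 were added after their values were seen. A called gene of the red cell membrane list is counted but not reported here.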

Additional observations from a re-analysis of the deposited data

How the results depend on the processing

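Slc4a1 and S100a9 were called lower, and 0 of the 9 genes higher, under the pseudocount of 0.1, median-of-ratios scaling and a fit without the intensity trend. Without the filter on low values 0 were called lower (adjusted p = 0.0566 for Slc4a1 and 0.0704 for S100a9, with 17615 genes tested), and with a mean of at least 2 FPKM 1 was, since Slc4a1 is below that filter. Leaving out 1 library gave 0 to 3 genes lower. Over all genes, calls without the filter were 159 higher and 107 lower. Without 1 library they ran from 1 to 272 higher and from 0 to 345 lower, with 1 and 0 without either ZB20KO library. With replicate number as a block 6 of the 9 genes were called lower, and over all genes 1362 higher and 991 lower. The labels do not say that a number marks a shared animal or litter, and 2 pairs are too few to treat them as pairs. The deviations of same-numbered libraries correlated at 0.403 over tested genes, and the cre spelling goes with the number. With the block 2 of 6 globin genes were called lower, Hba-a1 (adjusted p = 0.00643) and Hba-a2 (0.0401). Camp ran from -0.2 to 0.05 when 1 library was left out, and was above 0 without WT replicate 3 (adjusted p = 0.874). The median log2 fold change of the 6 granulocyte genes was -0.71, and -1.44 with a pseudocount of 0.1. A smaller pseudocount enlarges the log2 differences of low genes. The cause of the other shifts was not tested. The 9 genes rest on about 1 to 332 fragments per library.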

Other observations

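Mast cell genes were high in replicate 2 and low in replicate 3 of both genotypes. The mast cell protease gene Mcpt4 was at 2.95 and 0.31 FPKM in ZB20KO replicates 2 and 3 and at 2.15 and 0.05 FPKM in WT replicates 2 and 3, and the tryptase gene Tpsb2 was at 3.5 and 0.62 FPKM in ZB20KO and 2.16 and 0.15 FPKM in WT. Replicate 2 was thus the higher in both genotypes, the reverse of Ngp and Mpo. Of 14 genes of eosinophils, basophils and mast cells 5 were tested and 0 passed (limma, 1 lower at an unadjusted p under 0.05). That one was Prg2, the gene of the major basic protein of eosinophil granules, at 0.41 and 0.25 FPKM in ZB20KO and 1.01 and 1.3 FPKM in WT (-0.7 ± 0.15, adjusted p = 0.0724).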
